A study of Mus musculus with 6 samples.

Results

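SAP, the product of Sh2d1a, is an adaptor made of little more than an SH2 domain, which docks on the tyrosine motifs of SLAM-family receptors. The genes described here are 10 that act beside or after it in T cells: the kinase genes Fyn, Prkcq and Pak2, the signalling complex genes Bcl10 and Malt1, the exchange factor gene Vav1, the phosphatase genes Ptpn6, Ptpn11 and Inpp5d, and the adaptor gene Dok1. They were taken by name, as all of their probe sets that the platform annotation assigns to a single gene. All 10 were found, with 23 of the 45037 probe sets tested and 10 of the 18193 genes. Where a gene had several probe sets, the one with the highest mean over the 6 arrays stood for it.

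The arrays compare 2 groups of mouse CD4 T cells, 3 arrays of wild-type (WT) cells and 3 of SAP-deficient cells, and ask what the loss of SAP changes. Both groups carry the OT-II transgene, a T cell receptor specific for an ovalbumin peptide. Naive cells (CD44 low, CD62L+, CD25-) from spleen and lymph nodes spent 3.5 days in culture with that peptide. Spleen cells without T cells, kept from dividing by mitomycin C, presented it. The cytokines IL-21 at 50 ng/ml and IL-6 at 100 ng/ml were added, with antibodies that block IL-12, IFN-γ, TGF-β (20 µg/ml) and IL-4 (10 µg/ml), to obtain cells that resemble follicular helper T (Tfh) cells, the B cell helpers of germinal centres. The labels give no age or sex of the mice, do not describe how Sh2d1a was disrupted, and leave out whether each array had its own mice or culture. The p-values below therefore measure the spread between these arrays, which may be partly technical. In RNA from a whole culture, fewer cells of a type and less RNA per cell cannot be told apart.

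As background, SAP has a second surface, on its SH2 domain, that binds the SH3 domain of the Src-family kinase FYN and so brings an active kinase to the receptor. FYN then phosphorylates the receptor tail. Downstream of this step lie protein kinase C-θ (the product of Prkcq), BCL10 and NF-κB, and VAV1, a guanine nucleotide exchange factor for small GTPases. Without SAP, the same receptor motifs can recruit the inhibitory phosphatases SHP-1 (Ptpn6), SHP-2 (Ptpn11) and SHIP-1 (Inpp5d). SAP itself acts on proteins. The arrays measure transcripts, and so show neither the phosphorylation nor the location of any of these proteins.

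The labels held for the targeted transcript. Sh2d1a was at 9.50, 8.52 and 9.39 (log2) in WT replicates 1 to 3 and at 5.47, 4.10 and 4.92 in SAP-deficient replicates 1 to 3. The groups were far apart, with a difference (SAP-deficient minus WT, as everywhere below) of -4.31 ± 0.37 (SE, n = 3 arrays each), although its adjusted p of 0.0501 lay just above the threshold of 0.05 (limma, Benjamini-Hochberg over all genes). Its probe set was not placed relative to the disruption. The 10 T cell markers averaged 11.20 to 11.39 (log2) in WT arrays and 11.14 to 11.34 in SAP-deficient arrays, each of them above the median probe set mean of 5.75. The 11 measured B cell markers averaged 5.74 to 5.98 and 5.53 to 5.80, and 4 of them lay under that median. Replicates are numbered in the order of deposition, and the labels state no pairing. Arrays of opposite genotype with the same number nevertheless resembled each other most (correlation over all probe sets 0.996 to 0.998, against 0.989 to 0.994 within a genotype), so differences are also given within each number.

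None of the 10 genes differed detectably between WT and SAP-deficient cells. Of the 10, 6 were above 0 and 4 below, with a median difference of 0.01, which is also the median over all genes (0.01, with 53.3% of genes above 0). Limma called 0 of the 10, where the background was 0% of all genes. No member had an unadjusted p under 0.05 either, against 1.31% of all genes (0.566% higher and 0.748% lower). In no member did the 3 SAP-deficient arrays lie apart from the 3 WT arrays, against 5.32% of all genes (2.38% higher and 2.94% lower). The smallest unadjusted p among the members was 0.516, and each had an adjusted p of 1.00. The differences ran from -0.08 (Dok1) to 0.18 (Inpp5d).

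**Figure D1:**
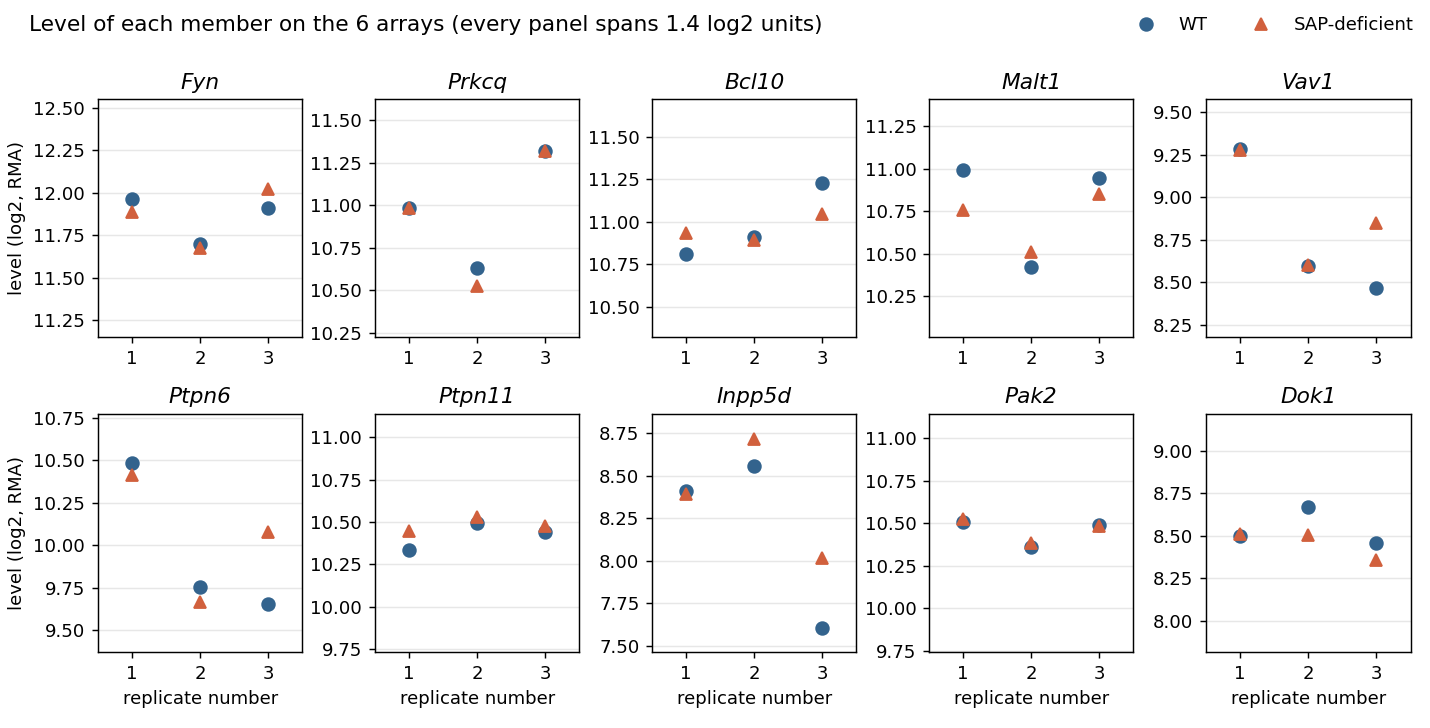
Level (log2, y axis) of the 10 genes in WT arrays (blue circles) and SAP-deficient arrays (orange triangles) by replicate number (x axis), 1 point per array, with the same span in every panel. Equal numbers lie close together in most panels, while the numbers themselves differ; Vav1, Ptpn6 and Inpp5d show an open gap between the genotypes in number 3.

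The 3 kinase genes were all near 0. Fyn, which encodes the kinase that SAP couples to SLAM receptors, was at 11.96, 11.70 and 11.91 (log2) in WT replicates 1 to 3 and at 11.89, 11.67 and 12.02 in SAP-deficient ones. The lowest value of both groups was replicate 2, and the groups overlapped. Its difference was 0.002 with a 95% interval of -0.25 to 0.25, or 0.84-fold to 1.19-fold. Its second probe set was at 0.05 ± 0.11 (SE). Prkcq encodes protein kinase C-θ, the isoform that gathers where a T cell touches the antigen-presenting cell. It was at 10.98, 10.63 and 11.32 in WT arrays and at 10.98, 10.52 and 11.32 in SAP-deficient arrays. The values were thus near-equal at numbers 1 and 3, with a difference of -0.001 in each, and -0.11 at number 2. The range over the 6 arrays, 0.80, was wide beside the difference of -0.04, whose interval of -0.56 to 0.49 is wide for the same reason. Pak2, a serine/threonine kinase activated by the GTPases RAC and CDC42, had the narrowest range of the members, 0.17. It was at 10.51, 10.36 and 10.49 in WT arrays and at 10.52, 10.38 and 10.49 in SAP-deficient arrays, a difference of 0.01 (-0.20 to 0.22). Its other 2 probe sets were at 0.10 ± 0.12 and 0.05 ± 0.15, the second with a mean level of 4.38, under the median of probe set means.

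BCL10 and MALT1 act together in a complex that links protein kinase C-θ to NF-κB. MALT1 is also a protease, which cuts regulators of NF-κB and of mRNA decay. Bcl10 was at 10.81, 10.91 and 11.23 in WT arrays and at 10.94, 10.89 and 11.05 in SAP-deficient arrays. Replicate 3 was the highest of both groups, and the difference of -0.03 (-0.30 to 0.25) went up at number 1 (0.13) and down at number 3 (-0.18). Bcl10 was read by 4 probe sets, of which 3 had the same order of replicate 3 over the others in WT arrays and differed by -0.03 to 0.01. The fourth was at 9.51, 9.50 and 9.36 in WT arrays and at 9.26, 9.22 and 9.39 in SAP-deficient arrays. Its difference of -0.17 ± 0.11 had the smallest unadjusted p of all 23 probe sets, 0.169 (limma), and its groups overlapped. Malt1 was at 10.99, 10.42 and 10.95 in WT arrays and at 10.76, 10.51 and 10.85 in SAP-deficient arrays, with replicate 2 lowest in both. The probe sets of Malt1 did not give 1 direction. The brightest was at -0.08 (-0.46 to 0.30) and the others at 0.13 ± 0.13 and 0.09 ± 0.14, none of them with an unadjusted p under 0.05.

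**Figure D2:**
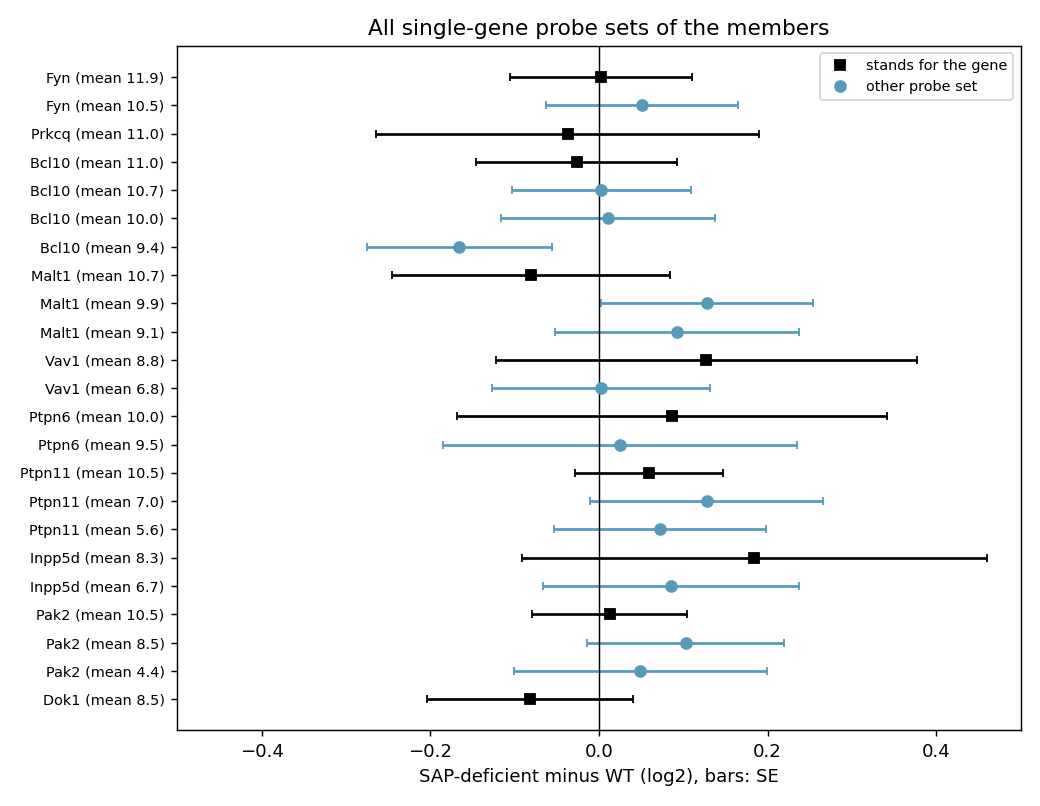
Difference between SAP-deficient and WT arrays (log2, x axis) for each of the 23 single-gene probe sets of the 10 genes, with its SE and its mean level in the label. Black squares stand for the gene and blue circles are its other probe sets; 18 of the 23 lie above 0 and 5 below, all within 0.2 of it.

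Of the 23 probe sets, 18 were above 0 and 5 below, and 0 had an unadjusted p under 0.05, against 1.64% of all probe sets. Probe sets of a gene share its transcripts and arrays and are not independent of each other. A gene's brightest probe set and its others differed in sign for Bcl10 and Malt1 alone among the members. Where each probe set lies in its transcript is not known here, so such differences cannot be assigned to isoforms.

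Vav1 and Ptpn6 varied together across the arrays. Vav1 encodes the exchange factor that, once phosphorylated, switches on RAC and drives actin remodelling. It was at 9.28, 8.60 and 8.47 in WT arrays and at 9.28, 8.60 and 8.85 in SAP-deficient arrays. Replicate 1 was the highest of both groups, and the genotypes were within 0.01 of each other at numbers 1 and 2 but 0.38 apart at number 3. Ptpn6 encodes SHP-1, a tyrosine phosphatase with paired SH2 domains that dampens antigen receptor signals. Its levels were 10.48, 9.75 and 9.65 in WT arrays and 10.41, 9.67 and 10.07 in SAP-deficient arrays. Again replicate 1 was highest in both groups, and the genotypes differed by -0.07, -0.09 and 0.42 at numbers 1 to 3. The overall difference was 0.13 (95% interval -0.45 to 0.70) for Vav1 and 0.09 (-0.50 to 0.67) for Ptpn6. The second Ptpn6 probe set had the same order, with differences of -0.16, -0.08 and 0.32 within the numbers. The dimmer Vav1 probe set, with a mean level of 6.78, did not: it gave -0.07, 0.12 and -0.04.

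The likeness of this pair was measured as the root mean square difference between their levels over the 6 arrays, each centred on its own mean. For Ptpn6 the nearest of all other genes was Vav1, at 0.05 log2 units, where Ptpn6 itself varied around its mean by 0.34. The next were Enkd1 at 0.06 and Man2a2 at 0.08. Enkd1 was at 8.23, 7.57 and 7.53 in WT arrays and at 8.11, 7.37 and 7.88 in SAP-deficient arrays, the same order of replicates as Ptpn6 in both groups. Among the 45 pairs of members the next nearest were Fyn and Pak2 at 0.08, both of which were lowest in replicate 2, but the whole range of Pak2 was only 0.17. These are descriptions over 6 arrays that resemble each other by number, and arrays differ in many genes at once.

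Inpp5d had the widest range of the members. It encodes SHIP-1, which removes a phosphate from the membrane lipid made by PI 3-kinase. It was at 8.41, 8.55 and 7.60 in WT arrays and at 8.39, 8.72 and 8.01 in SAP-deficient arrays, a range of 1.11 or 2.16-fold. Replicate 3 was the lowest of both groups, and WT replicate 3 the lowest of all. The genotypes differed by -0.02, 0.16 and 0.41 at numbers 1 to 3, and by 0.18 in all (-0.45 to 0.82). A difference of this size or more was found in 9.77% of all genes. With the numbers as a block, an alternative chosen with the data known, its unadjusted p was 0.0812 and its adjusted p 0.850 (limma). With number 1 left out of that fit the difference was 0.29, with an unadjusted p of 0.0280, against 5.74% of all genes under 0.05, and an adjusted p of 0.835. With number 2 left out it was 0.19, with an unadjusted p of 0.179 (limma). With number 3 left out it was 0.07, with an unadjusted p of 0.422 (limma). The second, dimmer Inpp5d probe set was at 0.09 in each of the numbers 1 and 2 and at 0.07 in number 3, an overall difference of 0.09 ± 0.15 (SE). The genes nearest to Inpp5d in profile were Septin10, Cep57l1 and Gmcl1, each at 0.04 log2 units where Inpp5d varied by 0.37. Septin10 was at 6.83, 7.11 and 6.07 in WT arrays and at 6.84, 7.20 and 6.47 in SAP-deficient arrays.

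**Figure D3:**
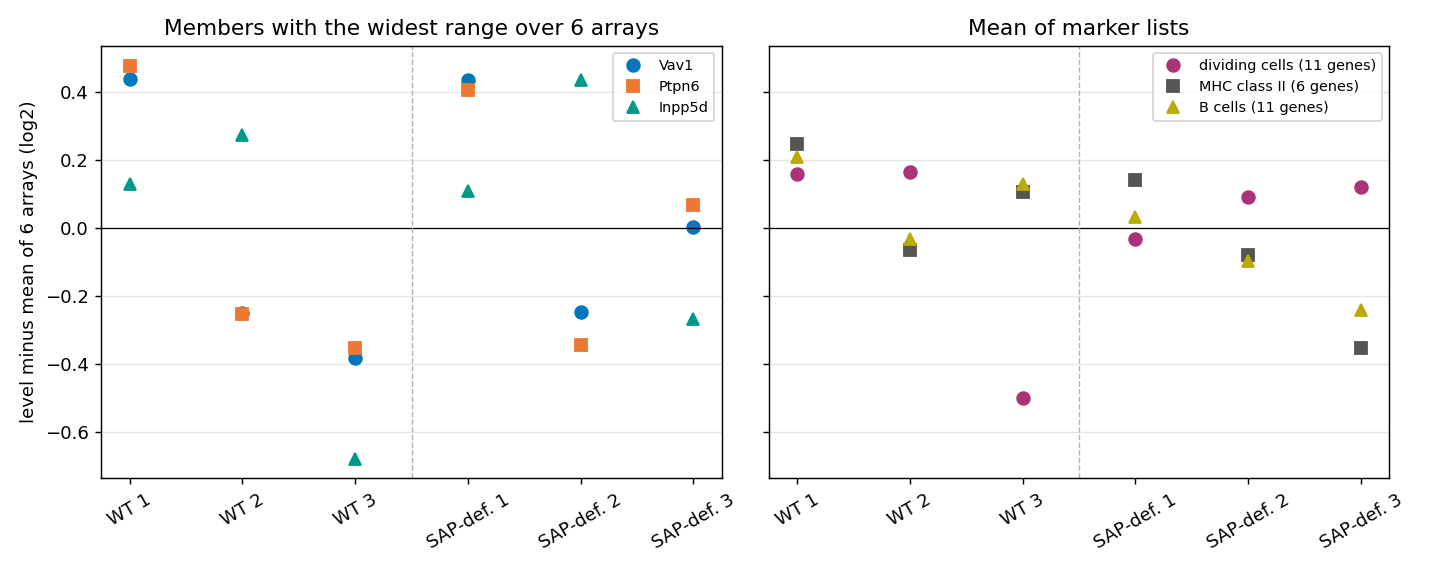
Level on each of the 6 arrays minus the mean of the 6 (log2, y axis) for Vav1, Ptpn6 and Inpp5d (left) and for the mean of 3 marker lists (right). Vav1 and Ptpn6 lie almost on top of each other on most arrays; WT replicate 3 has the lowest value of all 3 genes and of the dividing-cell markers, and SAP-deficient replicate 3 the lowest of the MHC class II and B cell markers.

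In number 3, where Vav1, Ptpn6 and Inpp5d were 0.38 to 0.42 higher in the SAP-deficient array, several marker lists differed too. Over all genes, differences within a number had an SD of 0.18 and 0.15 in numbers 1 and 2, and 0.23 in number 3. WT replicate 3 also had the lowest weight, 0.53, in the fit with array weights, against 0.80 to 1.55 for the other arrays. A difference above 0.3 in number 3 was found in 3 of the 10 members and in 8.04% of all genes. The number and the cut were chosen with the values of these 3 genes in view, so the count does not test for an excess among the members. The 11 measured markers of dividing cells averaged 9.44 in WT replicate 3 and 10.06 in SAP-deficient replicate 3, against 9.91 to 10.11 in the other 4 arrays. All 11 had a difference above 0 in the comparison of all arrays, with 0 called by limma and 0 with an unadjusted p under 0.05, and their mean differences within the numbers were -0.19, -0.07 and 0.62. The 6 measured MHC class II genes differed by a mean of -0.11, -0.02 and -0.46, and all 6 were below 0 over all arrays, with array means of 8.07 to 8.38 in WT and 7.78 to 8.27 in SAP-deficient cells. The 11 B cell markers differed by -0.18, -0.06 and -0.37 and were all below 0 over all arrays. The 12 macrophage and dendritic cell markers (5 above 0) had means of 5.96 to 6.26 and 5.84 to 6.38, and the 8 measured markers of CD8 T and NK cells (5 above 0) had means of 7.26 to 7.54 and 7.29 to 7.49. The part of these lists in the levels of Vav1, Ptpn6 and Inpp5d was not tested. With number 3 left out of both genotypes, the 3 differences were -0.0006, -0.08 and 0.07 in the blocked fit.

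The upstream sequences of these 3 genes are shown because their levels varied most over the arrays and, for Vav1 and Ptpn6, together. They are the 250 bases before the start that RefSeq gives (GRCm38.p6), written 5′ to 3′ on the strand of the gene. Such windows were used for 7 of the 10 members. Which start these cells used was not measured. The windows are Vav1 at chr17:57278850-57279099 (plus strand), Ptpn6 at chr6:124738710-124738959 (minus strand) and Inpp5d at chr1:87620062-87620311 (plus strand). Capitals mark every match, on either strand, to 5 motifs. They are the GC box, bound by SP-family factors and spelled GGGCGG, and an ETS-type motif, spelled CCGGAA. The others are a RUNX-type motif, spelled TGTGGT, the classical TATA box, spelled TATAAA, and the core of a cAMP response element, spelled TGACG.
Vav1: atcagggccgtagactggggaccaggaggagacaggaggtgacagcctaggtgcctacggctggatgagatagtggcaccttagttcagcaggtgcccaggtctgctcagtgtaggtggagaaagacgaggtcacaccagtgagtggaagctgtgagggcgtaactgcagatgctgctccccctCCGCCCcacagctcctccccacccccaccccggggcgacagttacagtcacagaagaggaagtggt
Ptpn6: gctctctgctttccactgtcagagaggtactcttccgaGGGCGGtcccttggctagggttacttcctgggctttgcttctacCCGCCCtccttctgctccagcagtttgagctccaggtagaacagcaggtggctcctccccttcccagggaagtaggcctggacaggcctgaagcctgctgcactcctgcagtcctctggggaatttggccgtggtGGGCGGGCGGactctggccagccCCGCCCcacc
Inpp5d: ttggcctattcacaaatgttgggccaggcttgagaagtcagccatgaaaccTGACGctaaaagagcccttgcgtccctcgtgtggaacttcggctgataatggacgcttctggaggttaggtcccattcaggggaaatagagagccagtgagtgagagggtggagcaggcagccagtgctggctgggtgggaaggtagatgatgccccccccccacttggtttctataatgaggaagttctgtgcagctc
The GC box letters occurred once in the Vav1 window and 5 times in that of Ptpn6, counting an overlapping pair as 2, and were not found in that of Inpp5d. The windows of Fyn, Prkcq, Bcl10 and Ptpn11, not shown, also held these letters, so they do not mark Vav1 and Ptpn6 as a pair. The same letters occurred in 32.7% of all 32851 windows of this length. The Inpp5d window held 1 match to TGACG, found in 17.8% of all windows. The exact letters used for the ETS, RUNX and TATA motifs, found in 12.0%, 14.0% and 12.4% of all windows, were not in any of the 3. Other spellings of these motifs were not searched, so a window without a match may still hold such a site. The windows held 60.8%, 63.2% and 54.4% G or C, against a median of 52.4%. A match is a run of letters and not a measured binding site.

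The other receptor-recruited phosphatase, SHP-2, had a transcript that varied little, with a range of 0.19 over the 6 arrays. Ptpn11, which unlike Ptpn6 encodes a phosphatase that mostly promotes Ras signalling, was at 10.34, 10.49 and 10.44 in WT arrays and at 10.45, 10.53 and 10.48 in SAP-deficient arrays. It was higher in the SAP-deficient array of each number, by 0.11, 0.04 and 0.03, while the groups overlapped. This made it 1 of 2 members with the same direction in all 3 numbers, with Prkcq (lower), where 28.8% of all genes had this (15.6% higher and 13.1% lower). The overall difference was 0.06 (-0.14 to 0.26). Its other probe sets, with mean levels of 7.03 and 5.63, were at 0.13 ± 0.14 and 0.07 ± 0.13.

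Dok1 encodes an adaptor that, once phosphorylated, holds the Ras GTPase-activating protein and so restrains Ras. It was at 8.50, 8.67 and 8.46 in WT arrays and at 8.51, 8.51 and 8.36 in SAP-deficient arrays. WT replicate 2 was the highest and SAP-deficient replicate 3 the lowest value, and the groups overlapped. The difference was -0.08 (-0.36 to 0.20), with 0.02, -0.16 and -0.10 within the numbers. It was measured by 1 probe set.

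**Figure D4:**
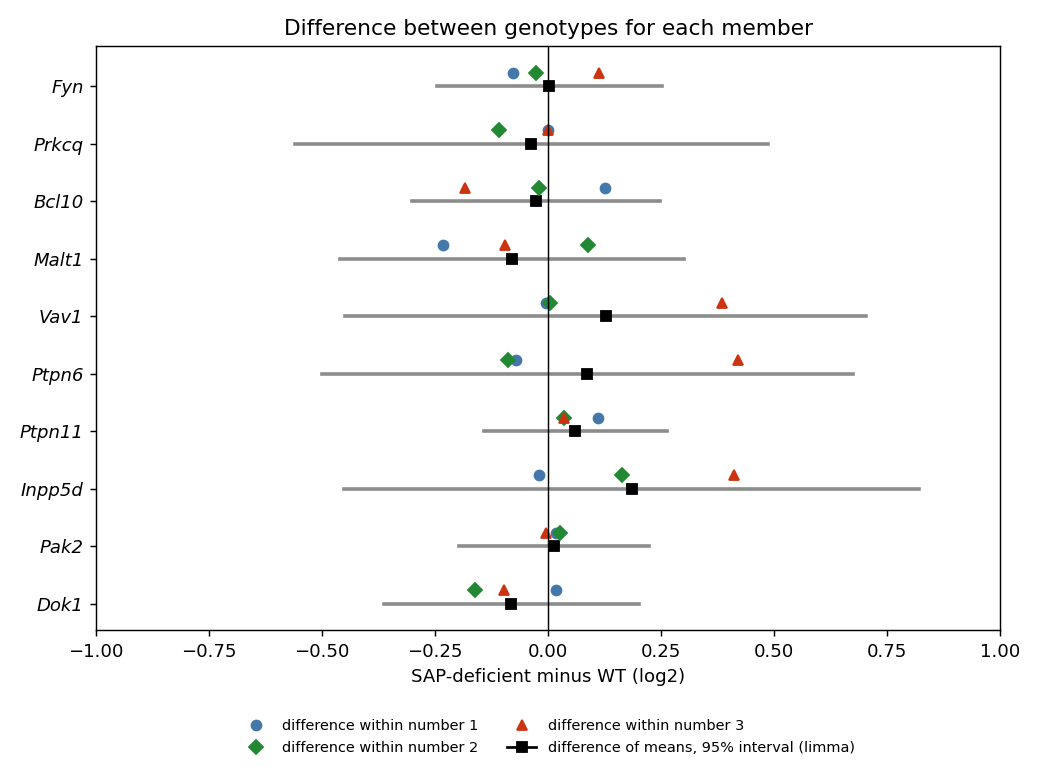
Difference between SAP-deficient and WT arrays (log2, x axis) for the 10 genes: black squares give the difference of the group means with its 95% interval (limma), coloured symbols the difference within each replicate number. Every interval covers 0, and the red triangles of number 3 lie apart from the other numbers for Vav1 and Ptpn6.

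These intervals set what the arrays could have missed. For 6 members (Fyn, Bcl10, Malt1, Ptpn11, Pak2 and Dok1) the whole 95% interval lay within 0.5 log2 units of 0. For the others, Prkcq, Vav1, Ptpn6 and Inpp5d, it lay within 1 unit. The widest upper bound was that of Inpp5d, 1.77-fold, and the lowest bound that of Prkcq, 0.68-fold. In simulated arrays of 18193 genes with the spread of these data, the same fit found 2% of the genes shifted by 0.5 log2 units. It found 54% where the shift was 1, and 93.6% where it was 2. With the numbers as a block, simulated in the same way, these shares were 14.8%, 68% and 94%. Each draw held 200 changed genes, which eases the adjusted threshold, so the shares can overstate what could be found here. In the real arrays the fit on genotype alone called no gene. There Sh2d1a, at -4.31, had an adjusted p of 0.0501 (limma). The blocked intervals of the members were narrower, such as -0.03 to 0.40 for Inpp5d and -0.15 to 0.08 for Prkcq, but rest on a pairing that the labels do not state.

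Most of the variance of each member lay between the replicate numbers. The share of the variance over the 6 arrays between numbers ran from 63.7% (Dok1) to 98.9% (Prkcq), with a median of 87.4%, against a median of 66.9% over all genes. This was not particular to the members. The lists of neighbouring genes described below had medians of 65.9% to 94.2%, and the T cell markers 92.3%. The share between genotypes ran from 0.007% (Fyn) to 24.9% (Ptpn11), with a median of 2.61%, against 6.36% over all genes. In all 10 members the numbers held more of the variance than genotype did, as they did in 86.0% of all genes. The numbers take 2 of the 5 degrees of freedom and genotype 1. With the numbers as a block, limma called 0 of the 10 members and 1 gene in all, Sh2d1a (0.00550% of genes). No member had an unadjusted p under 0.05 in that fit, against 6.10% of all genes, and the members' adjusted p-values ran from 0.850 to 1.00.

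**Figure D5:**
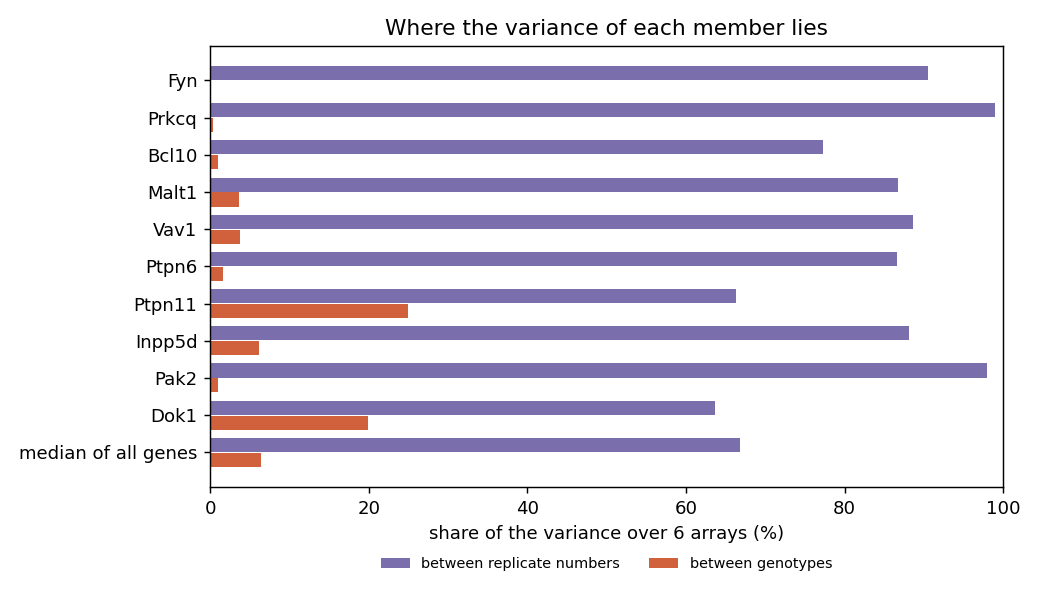
Share of the variance over the 6 arrays (%, x axis) that lies between the 3 replicate numbers (purple) and between the 2 genotypes (orange) for each of the 10 genes and, as the bottom row, the median over all genes. Prkcq and Pak2 have nearly all of theirs between numbers, and Ptpn11 and Dok1 the largest shares between genotypes.

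Genes that work next to the members were taken from 6 lists. Limma called none of their genes on genotype alone, and Sh2d1a alone with the numbers as a block. Among SLAM receptors and SAP-family adaptors, 5 of 10 measured genes were above 0, with a median of -0.01, and Sh2d1a alone had an unadjusted p under 0.05. Among Src, Syk and Tec kinases and their regulators, 8 of 12 were above 0 with a median of 0.06. In this list Skap1, which encodes an adaptor that binds FYN and helps to activate integrins, had the smallest p. It was at 10.06, 9.94 and 10.00 in WT arrays and at 10.23, 10.26 and 10.24 in SAP-deficient arrays, so the groups did not overlap. The difference was 0.25 ± 0.09 (SE), with an unadjusted p of 0.0248 and an adjusted p of 1.00 (limma). With the numbers as a block these were 0.00245 and 0.640. In that fit 4 of the 12 genes of this list had an unadjusted p under 0.05 (limma), 2 higher and 2 lower. Among the 10 of the SLAM list, 2 had one, Sh2d1a among them. The share over all genes was 6.10%.

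On genotype alone, the lists around the other members had medians of 0.01 to 0.07, against 0.01 over all genes, of which 53.3% were above 0. Among protein kinase C enzymes and the relay through BCL10 and MALT1 to NF-κB, 13 of 21 measured genes were above 0 with a median of 0.01 and 0 with an unadjusted p under 0.05. The smallest p there belonged to Tab3, encoding an adaptor of the kinase TAK1, at 0.17 ± 0.11 (SE). In the list of VAV and PAK proteins and the small GTPases between them, 15 of 21 were above 0 with a median of 0.01, and Cdc42, a GTPase that activates PAK2, had the smallest p at 0.10 ± 0.06. Among protein tyrosine and inositol phosphatases, 10 of 14 were above 0 with a median of 0.07. Inpp4b, which acts on the lipid that SHIP-1 makes, was at 0.23 ± 0.13. Among DOK proteins, Ras GTPase-activating partners and inhibitory adaptors, 14 of 19 were above 0 with a median of 0.05, and Dok5, dim with WT and SAP-deficient means of 3.88 and 4.04, was at 0.16 ± 0.12. In each of these 4 lists, 1 gene had groups that did not overlap, higher in SAP-deficient arrays. Among all genes, 5.32% had such groups (2.38% higher and 2.94% lower). The 4 listed genes were Tab3, Cdc42, Inpp4b and, named after its values were seen, Rasa2 at 0.09 ± 0.07. The first 3 also have the smallest p of their lists, which favours such a gap. Tab3, Cdc42, Inpp4b, Dok5 and Rasa2 each had an adjusted p of 1.00. With the numbers as a block, 2, 2, 3 and 0 genes of these 4 lists in turn had an unadjusted p under 0.05 (limma). The share over all genes was 6.10%, and none of the listed genes here was called. Among the listed genes, Lck, Lyn, Fyb1, Card9, Chuk, Pak1, Ptpn7, Dok6, Sh2d1b1 and Sh2d1b2 were not analysed here, since the annotation used gives none of them a probe set of its own under that name.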

How the data were processed

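Expression was measured on 6 Affymetrix mouse arrays, 3 per genotype, grouped by the strain given in the labels. Each array took 500 ng of total RNA, per the labels' protocols. The deposited values are log2 levels of 45101 probe sets. They were made by the authors with RMA in Expression Console, per the submitters' processing notes. RMA corrects background, equalises array distributions and summarises probes. RMA compresses differences of dim probe sets and hides changes in total RNA per cell. The sources used here give no version or build. Array medians ran from 5.73 to 5.77, and the number of arrays limits the precision.

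After 64 control probe sets were left out, 45037 were fitted with limma 3.58.1 (R 4.3.3; lmFit on genotype, eBayes with an intensity trend). Of these, 34945 have 1 gene in the platform annotation, 932 several and 9160 none. Symbols were updated through RefSeq, which matched 34741. Each of 18193 genes took its brightest single-gene probe set, with Benjamini-Hochberg adjustment over genes and a threshold of 0.05. The fit was tested on simulated data (5 draws, 200 changed genes each).

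The members, the gene lists and the similarity of equal-numbered arrays were chosen or known with earlier results of these data in view. Named with values are the members, Sh2d1a, the gene with the smallest p in each list and any with an unadjusted p under 0.05, and the 3 genes most like each of the 2 members with the widest range. Alternatives were other variance models, filters, scalings, array weights, probe set choices, the removal of each array and, added with the data known, the replicate numbers as a block. The labels state no pairing.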

Additional observations from a re-analysis of the deposited data

How the results depend on the processing

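No member was called under any of the 18 alternatives, and the lowest adjusted p of a member was 0.835 (limma). The count of genes called, 0 in the main comparison, was 1 with robust variance, 1 without _x_at and _s_at probe sets, and 0 to 1 when 1 array was left out (1 without WT replicate 2). With the replicate block, which rests on the similarity of arrays and not on the labels, it was 1, and it was 3, 1 and 36 with numbers 1, 2 and 3 left out of both genotypes. Of these 36 genes, 26 were higher and 10 lower, and none was a member. The median difference of the members, 0.01, was -0.0074 after a second quantile normalization, 0.035 with array weights, 0.051 with the mean of all probe sets, -0.037 to 0.045 when 1 array was left out, and 0.023 and -0.027 in the replicate block without numbers 1 and 3. The cause was not tested.

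Ptpn11 and Dok1 kept their direction under all alternatives, and the other 8 members turned under some. The second quantile normalization gave -0.011 for Fyn and -0.0040 for Pak2, array weights gave 0.062 for Prkcq and 0.038 for Bcl10, and the mean of all probe sets gave 0.047 for Malt1. The replicate block without number 3 gave -0.052 for Fyn, 0.052 for Bcl10, -0.00058 for Vav1 and -0.080 for Ptpn6. Leaving out 1 array gave -0.080 to 0.096 for Fyn, -0.227 to 0.172 for Prkcq, -0.114 to 0.097 for Bcl10, -0.262 to 0.021 for Malt1, -0.058 to 0.378 for Vav1, -0.095 to 0.347 for Ptpn6, -0.108 to 0.366 for Inpp5d and -0.034 to 0.053 for Pak2. Such removals unbalance the numbers, whose levels differ.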
